A study of Mus musculus with 15 samples.

Results

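Calcineurin and the other protein phosphatase subunit genes described here are 10 mouse genes with regions of p53 chromatin immunoprecipitation sequencing (ChIP-seq) signal. They comprise 4 calcineurin genes (Ppp3ca, Ppp3cb, Ppp3cc and Ppp3r1), 2 regulatory subunits of protein phosphatase 2A, PP2A (Ppp2r2c and Ppp2r5c), 1 each of PP4 (Ppp4r2) and PP6 (Ppp6r3), and 2 of PP1 (Ppp1r12a and Ppp1r42). The genes were chosen by the authors' region lists themselves, for regions held by the liver, spleen and thymus lists alike, so presence in all 3 lists is a property of the choice and is given below without a test. Every region inside one of the genes or within 20 kb of it was taken. This gave 15 distinct regions, of 4137 in the whole series, for 10 of the 21887 protein-coding genes that RefSeq annotates.

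The study immunoprecipitated p53, the transcription factor that responds to DNA damage, from organs of wild-type mice. Liver, spleen and thymus each have 5 libraries: 2 from mice given X-rays (2 Gy, taken 3 h later), 2 from untreated mice and 1 input. All mice share the wild-type genotype; the labels give neither age nor strain. The deposited values are 1 list of regions per organ, and the labels assign each list to all 5 libraries of its organ. The liver list holds 3872 regions, that of spleen 2604 and that of thymus 2405, and a region held by several lists has the same boundaries in each. No values per library were analysed, so the comparison of irradiated with untreated mice could not be made, the error between mice and the read depth are unknown, and the organs could not be checked against marker genes. Each region carries the authors' own score, of unstated scale. It is used here only as a percentile, the share of the list that ranks at or below the region, with 100 the highest.

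Calcineurin is the phosphatase that calcium and calmodulin switch on. A catalytic subunit, encoded by Ppp3ca, Ppp3cb or Ppp3cc, pairs with a calcium-binding regulatory subunit, encoded in most tissues by Ppp3r1. Its best known substrates are the NFAT transcription factors, which enter the nucleus of T cells once dephosphorylated; cyclosporin and tacrolimus block this step. PP1, PP2A, PP4 and PP6 are related serine/threonine phosphatases whose regulatory subunits decide which substrates the catalytic subunit meets.

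In 2 of the genes a region reached into the annotated promoter, a window of 250 bases before and 50 after a transcription start in RefSeq (GRCm38.p6, the assembly that mm10 names). Of the 10 genes, 7 have a listed start, giving 8 windows. Ppp3ca, Ppp3cc and Ppp1r42 have no listed start, so a region in their promoters could not be counted. Whether the end of Ppp3cc that a region crosses is its start was not established. The bases of those regions that lie upstream of the gene are shown for Ppp4r2 and Ppp1r12a. The windows also cover bases of these regions inside the genes, which are not printed. The promoter of Ppp3cb is shown as well because, of the 8 windows, it alone held a p53 half-site with no mismatch. Each is written 5′ to 3′ in the direction of the gene, and capitals mark matches to the p53 half-site or to GGGCGG on either strand.
Ppp4r2, chr6:100833401-100833619, plus strand: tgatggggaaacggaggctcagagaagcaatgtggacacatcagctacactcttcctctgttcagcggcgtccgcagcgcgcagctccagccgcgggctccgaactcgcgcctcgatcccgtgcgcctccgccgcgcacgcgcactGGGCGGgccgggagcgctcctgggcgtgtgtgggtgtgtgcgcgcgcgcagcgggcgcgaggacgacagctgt
Ppp1r12a, chr10:108162001-108162091, plus strand: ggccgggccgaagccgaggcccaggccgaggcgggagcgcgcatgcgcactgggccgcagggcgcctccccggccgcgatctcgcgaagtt
Ppp3cb, chr14:20546574-20546823, minus strand: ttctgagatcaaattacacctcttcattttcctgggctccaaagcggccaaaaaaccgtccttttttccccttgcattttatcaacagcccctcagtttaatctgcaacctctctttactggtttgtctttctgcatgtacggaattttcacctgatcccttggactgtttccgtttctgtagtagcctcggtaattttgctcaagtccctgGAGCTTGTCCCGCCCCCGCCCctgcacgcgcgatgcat

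The Ppp4r2 stretch was 70.3% G and C with 31 CpG sites in 219 bases, and that of Ppp1r12a 79.1% with 15 CpG sites in 91 bases. The whole windows of these genes held 40 CpG sites each, against a median of 7 over the 32851 promoter windows in the table. Windows of the other described genes, which no region touched, were often rich in CpG too. Those of Ppp2r2c, Ppp3r1 and the first of Ppp2r5c held 36 each, that of Ppp6r3 21 and that of Ppp3cb 13. The second Ppp2r5c window held 6. Neither stretch matched the p53 half-site, a motif of 10 bases that forms one arm of a p53 response element, even with 1 mismatch allowed. The Ppp4r2 stretch held GGGCGG, the GC box, once. Over all promoter windows, 8.36% held a half-site with no mismatch, 70.0% one with at most 1 mismatch and 35.7% a GC box. Those windows are 300 bases long, more than either stretch. The whole Ppp1r12a window held 1 half-site with 1 mismatch and 2 GC boxes, and that of Ppp4r2 held 0 and 1. For Ppp1r12a, whether these matches lie in the unprinted bases of the region was not worked out. The motifs CCAAT and CGGAAG, found in 37.4% and 16.9% of all windows, were in neither stretch. In Ppp3cb the capitals start with the half-site GAGCTTGTCC, whose last base is also the start of the first of 2 GC boxes read on the opposite strand. That half-site lay 551 bases away from the region of the gene, outside it. Matches are descriptions of these letters only, and sequence inside the genes was not used here beyond the promoter windows.

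All 15 regions touched their gene. Of these, 12 lay wholly within it and 3 ran across a gene end (Ppp3cc, Ppp4r2 and Ppp1r12a), while 0 lay in the 20 kb outside. Regions were called gene-end regions when their midpoint fell no more than 1 kb from an end of some annotated gene; 4 were, those 3 and the Ppp3cb region, and the other 11 lay deeper inside. Regions in all 3 lists numbered 14, and 1, at the start of Ppp1r12a, was in the liver list alone. Each of the 10 genes thus had a region in each list, as the choice required. For comparison, the same rule gave a region to 22.3% of coding genes from the liver list, 12.8% from that of spleen and 11.6% from that of thymus, and 9.00% had one held by all 3 lists. The members are long, between 36.3 kb (Ppp4r2) and 268.0 kb (Ppp3ca), and among coding genes of their length deciles 10.9% to 16.9% held such a shared region. Of all distinct regions, 46.7% were in all 3 lists.

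**Figure D1:**
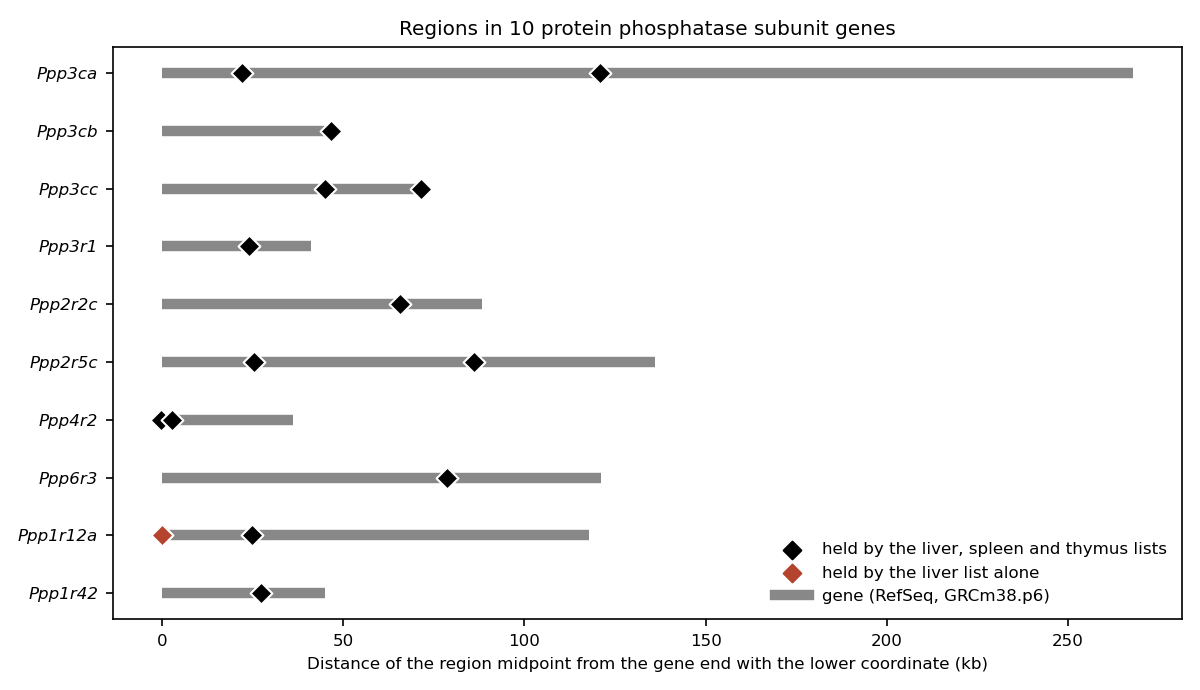
Map of the 10 genes, each drawn as a grey bar from its lower to its higher coordinate; the x axis is the distance in kb of each region's midpoint from the lower end. Black diamonds are the 14 regions held by all 3 lists, and the red diamond is the Ppp1r12a region held by the liver list alone; 5 genes carry 2 regions.

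Of the 10 genes, 5 held 2 regions in the liver list (Ppp3ca, Ppp3cc, Ppp2r5c, Ppp4r2 and Ppp1r12a), and 4 of them held 2 in the spleen and thymus lists too. The shares of all coding genes with at least 2 regions were 4.09%, 1.59% and 1.30% in liver, spleen and thymus, and 0.845% for regions of all 3 lists. The 10 genes were chosen to have a shared region and are long. Of coding genes with at least 1 region, 18.3%, 12.4% and 11.3% had at least 2 in liver, spleen and thymus, and 9.39% of those with a shared region had at least 2 shared ones. Within the length deciles of the 10 genes (8 to 10) this share was 20.2% for liver and 12.1% for shared regions. The shares by organ list count genes with any region of that list, shared or not. Only the shares for shared regions follow the rule by which the 10 genes were chosen. No test was made. Within a gene, the 2 regions were separated by as little as 2.65 kb in Ppp4r2 and as much as 98.35 kb in Ppp3ca. Regions are numbered 1 and 2 below in order of coordinate.

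Ppp3ca, which encodes the alpha catalytic subunit of calcineurin, spans 136669714 to 136937727 on chromosome 3 (mm10). Its region 2, of 550 bp (136790401 to 136790950), lay deep in the gene, 121.0 kb from the nearer end. It ranked at the 98.7 percentile in liver, 97.2 in spleen and 98.1 in thymus. Only 46 of the 3872 liver regions, 71 of the spleen regions and 41 of the thymus regions had a higher score. It is among the highest-scoring regions of every organ list, and the order between organs cannot be read from gaps this small. Region 1, of 150 bp (136691901 to 136692050), lay 22.3 kb from the lower end and ranked at 64.3 in the liver list, against 25.8 in the spleen list and 18.5 in the thymus list. The same gene therefore carried one region that was high in every list and another that was in the upper 50% in liver only.

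Ppp3cb encodes the beta catalytic subunit (chromosome 14, 20499364 to 20546573). Its 1 region, of 150 bp (20545901 to 20546050), lay inside the gene 598 bp downstream of the start, at percentiles of 13.3 in the liver list, 1.69 in the spleen list and 7.82 in the thymus list. It was low in every list and sat lower in spleen than any other region of the 10 genes. The start of a long noncoding RNA gene, 1810062O18Rik, lies 243 bp beyond the region on the opposite strand, and the promoter window of that gene reached 8 bp into it. The coding gene Usp54, which encodes a relative of the deubiquitinases, has its nearer end 2862 bp away, so the gene that the region belongs to cannot be told apart from these.

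Ppp3cc, the catalytic subunit gene best known from testis, spans 70217864 to 70289536 on the same chromosome. Its region 1, of 250 bp (70262901 to 70263150), lay 26.5 kb inside the gene and ranked at 69.2 in the liver list, 83.0 in the spleen list and 70.7 in the thymus list. Region 2, of 150 bp, ran across the gene end (70289401 to 70289550) and ranked at 74.6 in the liver list, 12.4 in the spleen list and 33.6 in the thymus list. The inner region was in the upper 50% of all 3 lists, whereas the gene-end region was so in liver alone. The pseudogene Gm4240 lies 12619 bp from region 2, and the coding gene Slc39a14 13917 bp from it. Gm33790, a long noncoding RNA gene, lies 7157 bp from region 1.

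Ppp3r1 encodes the regulatory subunit that binds calcium and every calcineurin catalytic subunit (chromosome 11, 17159298 to 17200380). Its region, of 450 bp (17183101 to 17183550), lay 24.0 kb downstream of the start. It ranked at 63.4 in the liver list, 94.5 in the spleen list and 89.1 in the thymus list. The lymphoid organs placed it near the top of their lists, and liver placed it somewhat above its middle. The spleen score is shared by 19 regions, so that percentile is an average over ties. The coding gene Pno1, which acts in ribosome assembly, lies 19648 bp from the region.

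Ppp2r2c encodes a B-type regulatory subunit of PP2A known mainly from brain (chromosome 5, 36866846 to 36955078). Its region (36932301 to 36932550) lay 63.9 kb downstream of the listed start and ranked at 33.1 in the liver list, 78.0 in the spleen list and 62.0 in the thymus list. As at Ppp3r1, liver held the lowest rank of the 3 lists. Gm52813, a long noncoding RNA gene, lies 7720 bp from the region.

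Ppp2r5c encodes the B56 gamma subunit, which in human cells brings PP2A to p53 itself after DNA damage (chromosome 12, 110447144 to 110583075). Region 1, of 350 bp (110472301 to 110472650), ranked at 87.6 in the liver list, 81.5 in the spleen list and 57.7 in the thymus list. It also lies inside Gm19605, a long noncoding RNA gene, and 13.3 kb from the nearer of 2 listed starts of Ppp2r5c. Region 2, of 250 bp (110533201 to 110533450), ranked at 37.0 in the liver list, 55.1 in the spleen list and 78.8 in the thymus list. The order of the organs is turned round between the regions of this gene.

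Ppp4r2 encodes a regulatory subunit of PP4, a complex that in human cells dephosphorylates the damage-marked histone H2AX (chromosome 6, 100833620 to 100869934). Region 1, whose upstream bases are printed above, is 250 bp long (100833401 to 100833650) and lies entirely within the promoter window. It ranked at 61.4 in the liver list, against 8.14 in the spleen list and 6.36 in the thymus list. Region 2, only 50 bp long (100836301 to 100836350) and 2.69 kb downstream of the start, ranked at 10.8 in the liver list, 19.7 in the spleen list and 43.7 in the thymus list. The promoter region was thus somewhat above the middle of the liver list and near the bottom of both lymphoid lists. The region beside it was highest in thymus, and its liver and spleen ranks differed by under 1 point when the same regions were ranked in each list.

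Ppp6r3 encodes a regulatory subunit of PP6 (chromosome 19, 3454928 to 3576033). Its region, of 1050 bp, was the widest of the 15 (3533101 to 3534150) and lay 42.1 kb downstream of the listed start. It ranked at 98.7 in the liver list, 96.5 in the spleen list and 95.4 in the thymus list. With Ppp3ca region 2 it was one of only 2 of the 15 regions above the 95 percentile in each list, although its thymus value was 94.6 with ties at their lowest rank and 94.5 among the shared regions. The liver score is the same as that of Ppp3ca region 2, one of 10 liver regions tied there, and 40 thymus regions tie with its thymus score.

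Ppp1r12a encodes MYPT1, the subunit that brings PP1 to myosin (chromosome 10, 108162092 to 108279985). Region 1, of 150 bp across the gene start (108162001 to 108162150), was in the liver list alone, at the 60.2 percentile. Its sequence upstream of the gene is printed above, and 147 of its bases lie in the promoter window. The long noncoding RNA gene Gm40754 lies 1564 bp from region 1, and which gene the region belongs to was not tested. The lowest scores of the spleen and thymus lists are both 7.00; no score of this region in those organs was analysed. Region 2, of 150 bp (108186901 to 108187050), lay 24.9 kb downstream of the start and ranked at 36.9 in the liver list, 53.6 in the spleen list and 26.8 in the thymus list. A further region just beyond the window, 21.0 kb outside the gene, was in the liver list alone, at 16.1. For the other 9 genes the next region was at least 61.8 kb away.

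Ppp1r42 encodes a leucine-rich repeat protein that binds PP1 (chromosome 1, 9968622 to 10013541). Its region, of 350 bp (9995701 to 9996050), lay 17.7 kb from the nearer gene end and ranked at 93.5 in the liver list, 61.7 in the spleen list and 91.6 in the thymus list. Liver and thymus placed it alike, and spleen lower. LOC115487608, a small nuclear RNA gene, lies 13764 bp from the region.

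**Figure D2:**
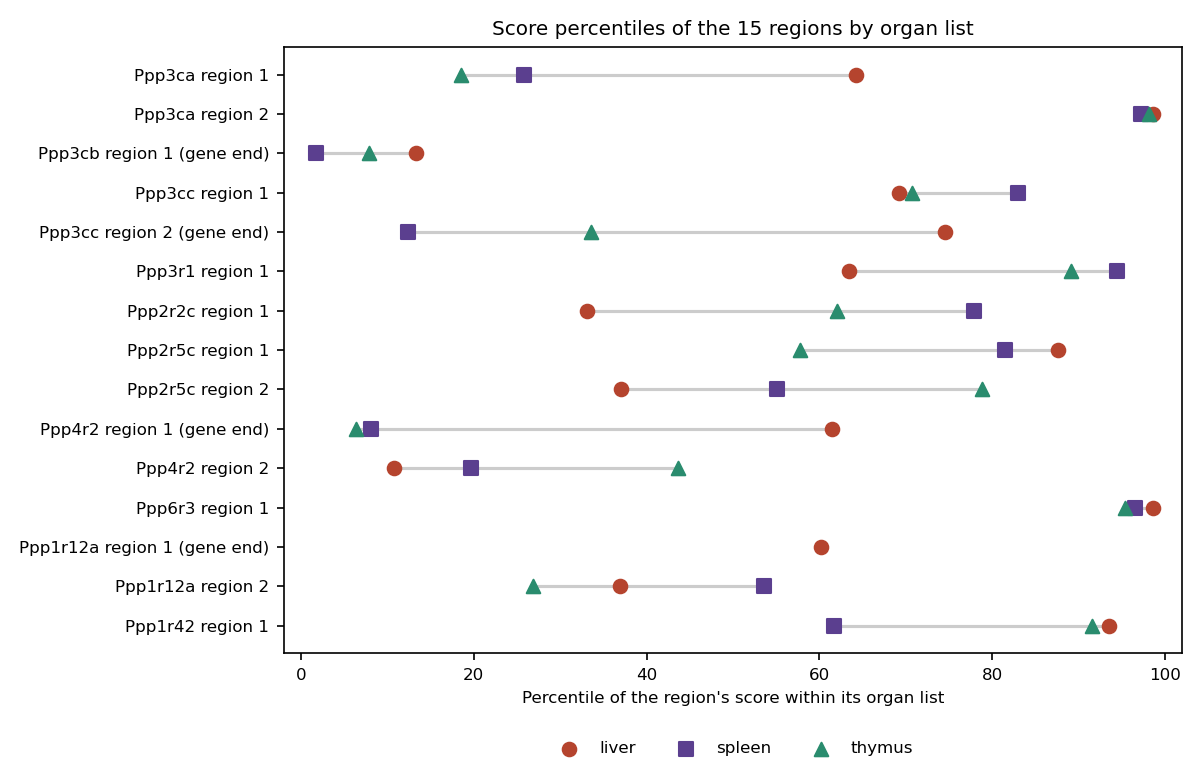
Score percentile (x axis, 0 to 100 within each organ list) of each of the 15 regions, with circles for liver, squares for spleen and triangles for thymus; the grey line joins the lowest and highest. Ppp3ca region 2 and Ppp6r3 sit above 95 in all 3 lists (Ppp6r3 falls to 94.6 in thymus with ties at their lowest rank and 94.5 among shared regions), Ppp3cb sits below 14 in all 3, and Ppp4r2 region 1 sits at 61.4 in liver and below 9 in spleen and thymus.

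Across the 15 regions, 6 were above the 50 percentile in every list: Ppp3ca region 2, Ppp3cc region 1, Ppp3r1, Ppp2r5c region 1, Ppp6r3 and Ppp1r42. A further 2, Ppp3cb and Ppp4r2 region 2, were below it in every list. The other 7 were above it in at least 1 list holding them but not in all 3. Of all 1930 shared regions, 27.7% were above the 50 percentile in every list and 14.9% below it. Ranked among the shared regions alone, 6 of the 14 were above 50 in every list, against 23.9% of all, and 3 were below it, against 20.4%, Ppp1r12a region 2 being the one added. The 14 shared regions had median percentiles of 63.9 in the liver list, 58.4 in the spleen list and 59.9 in the thymus list, against 52.3, 58.0 and 55.9 over all 1930 shared regions. Their median width, 250 bp, equals that of all shared regions.

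Lists of different length do not give comparable percentiles, so the 14 regions were also ranked among the 1930 regions that all 3 lists hold. On this common scale the 3 shared gene-end regions had their highest rank in liver. Ppp3cc region 2 stood at 70.8 in the liver list, 6.11 in the spleen list and 27.0 in the thymus list, 64.7 points above spleen and 43.8 above thymus. Ppp4r2 region 1 stood at 58.5, 3.42 and 3.89, 55.1 and 54.6 points above spleen and thymus. At Ppp3cb the differences were small, 12.5 and 8.34 points, with all 3 ranks low. The same direction is common among gene-end regions of the whole series: 62.6% of the 366 shared gene-end regions ranked highest in liver, with a median of 21.2 points above the mean of the lymphoid organs. The 3 phosphatase gene ends had a median of 54.2 points on the same measure, and no test of that difference was made.

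The 11 shared regions inside the genes had no common order. Liver held the highest rank at 3 of them, spleen at 4 and thymus at 4. Over all 781 shared regions inside genes the shares were 30.0%, 30.7% and 39.3%. Ppp3ca region 1 was highest in liver, 45.2 points above spleen and 48.0 above thymus, although it is not at a gene end. The opposite order held at Ppp2r2c, with liver minus spleen at -40.3 points and liver minus thymus at -24.5, at Ppp3r1 (-32.1 and -26.2) and at Ppp2r5c region 2 (-10.6 and -39.2). Spleen and thymus themselves parted inside these genes, with spleen minus thymus at -35.8 points for Ppp1r42, -28.6 for Ppp2r5c region 2 and -25.6 for Ppp4r2 region 2. It was 24.7 for Ppp2r5c region 1 and 24.2 for Ppp1r12a region 2. Differences of a few points, as at Ppp3ca region 2 (1.09 and -0.337) and Ppp6r3 (2.02 and 2.93), cannot be told apart from no difference. The larger differences could not be tested either, since there is 1 list per organ and no error for a rank.

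**Figure D3:**
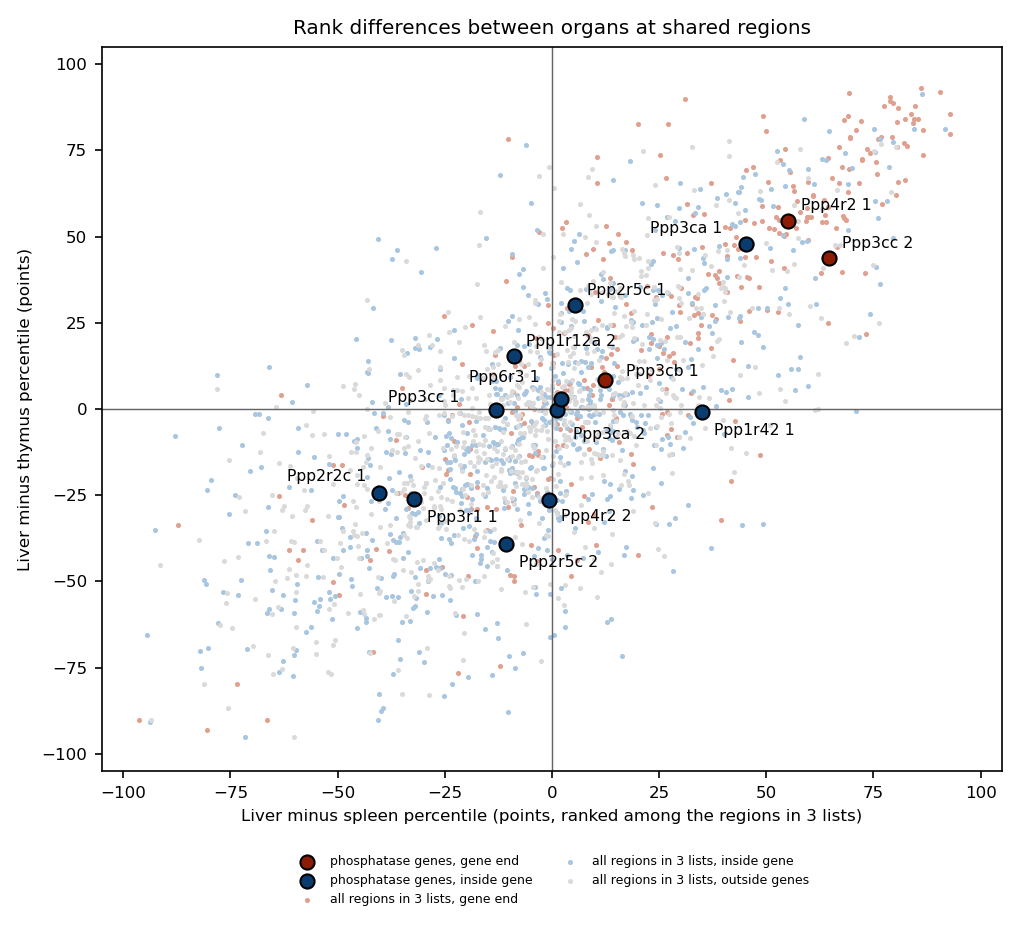
Liver minus spleen (x axis) and liver minus thymus (y axis) differences in percentile points at regions held by all 3 lists, each organ ranking the same 1930 regions. Large points are the 14 phosphatase regions, red at gene ends and blue inside genes, and small points are all shared regions by place. Ppp4r2 region 1, Ppp3cc region 2 and Ppp3ca region 1 lie far to the upper right (higher rank in liver), and Ppp2r2c, Ppp3r1 and Ppp2r5c region 2 to the lower left.

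A list of 123 further genes held catalytic and regulatory subunits of the same phosphatases, the PPM family of unrelated metal-dependent phosphatases, and partners of calcineurin. Regions were found for 36 (29.3%) in the liver list, for 19 (15.4%) in the spleen list and for 13 (10.6%) in the thymus list, beside the 22.3%, 12.8% and 11.6% of all coding genes. A region held by all 3 lists was found for 10 (8.13%), beside 9.00%, and 86 had none. The 10 described genes, each with a region in every list, had been taken out of this list by the choice, which lowers its shares. All coding genes still include them, so the shares do not compare like with like, and no test was made. Regions near these genes that only the liver list holds were at gene ends in 21 of 23 cases, as were 80.9% of liver-only regions in the whole series.

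**Figure D4:**
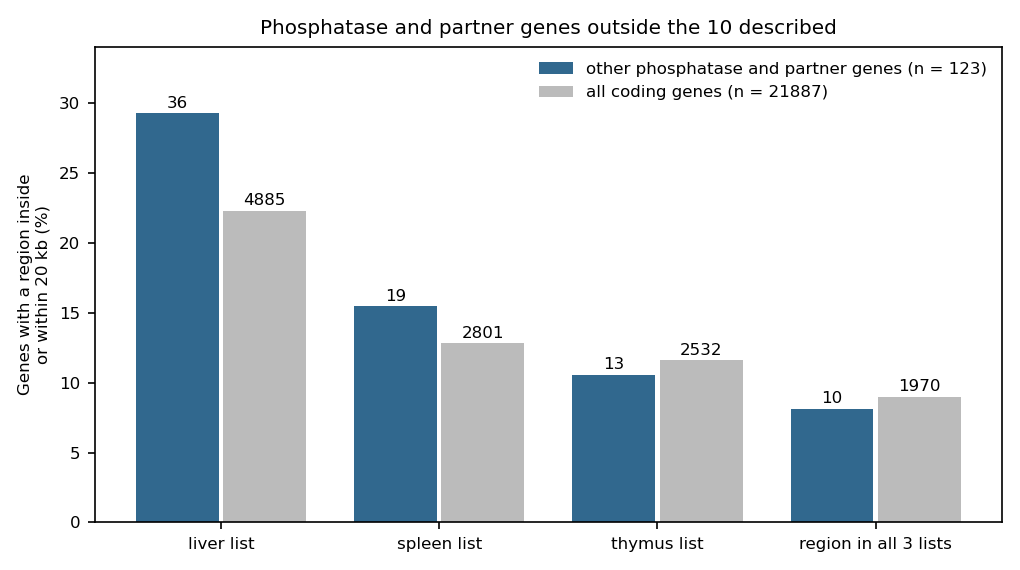
Percentage of genes (y axis) with a region inside or within 20 kb, for the 123 other phosphatase and partner genes (blue) and all 21887 coding genes (grey), by organ list and for regions in all 3 lists; numbers above the bars are gene counts. The blue and grey bars lie within 7 percentage points of each other in every pair.

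Among the partners of calcineurin, Rcan1, a feedback inhibitor of the enzyme, held a region in all 3 lists inside the gene (chromosome 16, 92457601 to 92457850). It ranked at 68.2 in the liver list, 46.5 in the spleen list and 48.1 in the thymus list. Calm3, which encodes calmodulin, had a shared gene-end region that was low throughout, at 12.8 in the liver list, 2.63 in the spleen list and 5.51 in the thymus list. Of the 8 substrate genes 1 (12.5%, beside 9.00% of all coding genes) had a shared region. It was Crtc1, a coactivator of CREB that calcineurin brings into the nucleus. The Crtc1 region lay at a gene end and ranked at 96.4 in the liver list, 23.6 in the spleen list and 6.44 in the thymus list (chromosome 8, 70439501 to 70439850). Nfatc3 had a region in spleen and thymus without liver, at 13.5 and 59.4, and Nfatc1, Nfatc2 and Nfatc4 had none. Gsk3b, a kinase that returns NFAT to the cytoplasm, held a shared region inside the gene at 54.1, 20.2 and 64.3. Ppp3r2, the other regulatory subunit gene of calcineurin, had no region.

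Of the 42 other PP1 regulatory genes, 7 (16.7%) were covered by the liver list, 3 (7.14%) by that of spleen and 0 by that of thymus, beside 22.3%, 12.8% and 11.6% of all coding genes; the PP1 genes among the 10 had been taken out by the choice. The highest liver ranks there belonged to regions nearer to other coding genes: one 18962 bp from Ppp1r10 at 97.1 and one 6091 bp from Ppp1r35 at 92.2. Ppp1r8, a nuclear inhibitor of PP1, had a gene-end region at 87.0 in liver and 10.5 in spleen. Of the 15 PP2A scaffold and regulatory genes outside the 10, Strn4 alone (6.67%, beside 9.00% of all coding genes) had a shared region within 20 kb. Ppp2r2c and Ppp2r5c, which hold shared regions, had been taken out of this set by the choice, which lowers its share. The Strn4 region lay 470 bp outside the gene, at 41.2 in the liver list, 79.9 in the spleen list and 40.3 in the thymus list. The shared region at Ppp1cc, a catalytic subunit of PP1, lay 9117 bp outside it and nearer to Ccdc63, at 62.5, 74.9 and 89.5. Ankrd44, which encodes an ankyrin repeat subunit of PP6, held one inside the gene at 58.3, 80.9 and 72.9. Of the 4 other PP4 regulatory genes, 1 (25.0%), Ppp4r3a, had a region in liver and 0 had one in spleen or thymus. The shares of all coding genes were 22.3%, 12.8% and 11.6% in liver, spleen and thymus, and Ppp4r2 had been taken out of this set by the choice. Regions at Gsk3a and Ppp1r14b, both at 85.0 in liver alone, were also nearer to other coding genes.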

How the data were processed

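The authors deposited 3 headerless lists of p53 ChIP-seq regions, 1 per organ, with a score for each region in column 5. The genome build is mm10 per the submitters' processing notes; the aligner, the region caller, the meaning of the score and any pooling of the 5 libraries of an organ are not stated in any label or header used here, although each list's name refers to irradiation and IgG. A list that pools libraries, or subtracts a control, would hide differences between mice and treatments. Genes and promoter sequences came from RefSeq tables of GRCm38.p6. Overlap meant at least 1 bp. Percentiles are average ranks within a list divided by its length (pandas 2.3.3, Python 3.11.15). The counting step was tested on simulated data against bedtools. Members and gene lists were chosen with earlier results of these data known. Of 134 listed genes, 133 matched a RefSeq symbol and 1 (Pabir1) did not. The rule for named genes took all members, other listed genes with a region in all 3 lists, and 5 more by highest percentile; others named for a count of few genes were chosen after their values were seen. No significance test was made, because the choice of members used the lists and each organ has 1 list. Alternatives varied the window, the score limit, list length, overlap and ties.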

Additional observations from a re-analysis of the deposited data

How the results depend on the processing

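Windows of 5 kb or the gene alone, region midpoints and an overlap of 50% of the shorter region left each count within 1.5 times its value. With a window of 50 kb, other phosphatase genes with a region numbered 58 in liver, 33 in spleen, 28 in thymus and 23 for all 3 lists. With only regions at or above the median score of their list, these numbers were 23, 5, 6 and 3. Shares of all coding genes were not computed in either setting, so these numbers cannot be set beside the shares given for 20 kb and full lists. Under the limit at the median score the 10 genes held 9 regions in spleen and 8 in thymus, and 6 regions in 6 genes remained in all 3 lists. With liver and spleen cut to the 2405 highest-scoring regions, 9 of the 14 shared regions stayed shared. Fewer regions entered these settings by construction. Ranking ties at their lowest or highest place moved the 43 percentiles by at most 0.811 points. Ranking among the 1930 shared regions, an alternative chosen after seeing the data, moved 42 percentiles by -9.63 to 0.197 points. No paired analysis was possible because the lists hold no values per library. Depth is unknown, and 1 list per organ gives no error.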

Other observations

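The PPM phosphatases, a family without sequence relation to the 10 genes, held regions in 5 of 12 genes for liver and in 3 for each of spleen and thymus, and 3 genes had a region held by every list. These are 41.7%, 25.0%, 25.0% and 25.0% of a family of 12, beside 22.3%, 12.8%, 11.6% and 9.00% of all coding genes, and no test was made. The shares were not matched for gene length. Ppm1h and Ppm1l, which have shared regions, are long genes. In the longest length decile 16.9% of coding genes held a shared region. Ppm1d, a p53 target that encodes the phosphatase Wip1, had a gene-end region at percentiles of 69.8 in the liver list, 16.5 in the spleen list and 18.8 in the thymus list (chromosome 11, 85311201 to 85311450). Ppm1h, which encodes a phosphatase of Rab GTPases, had a region inside the gene at 18.1 in the liver list, 83.3 in the spleen list and 96.7 in the thymus list (chromosome 10, 122843801 to 122844650). Ppm1l held 2 shared regions inside the gene, separated by 11.75 kb. Its region 1 ranked at 0.917 in the liver list, 73.8 in the spleen list and 43.2 in the thymus list, and its region 2 at 90.5, 57.9 and 81.9 (chromosome 3, 69486901 to 69486950 and 69498701 to 69498950). As at Ppp2r5c, the regions of 1 gene stood in opposite order between organs. No value per library was analysed, and what moves these ranks was not tested.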
